A study of Mus musculus with 6 samples.

Results

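The mitotic spindle, checkpoint and cytokinesis genes are 42 of the 17526 genes in a table of small intestinal crypt RNA from mice. They were taken by exact gene symbol from a list of mitotic kinases, spindle checkpoint, kinetochore, kinesin and cytokinesis genes set up for this description. The rule uses symbols only, but this list and the other gene lists below were chosen with earlier results of these data known. Counts over these lists are therefore descriptions. All 42 were found, and all 42 passed the filter on low counts that left 12943 genes tested. The study sequenced 6 mRNA libraries from isolated crypts. Crypts are the glands at the base of the villi, where stem cells and their transit-amplifying daughters divide, and which also hold Paneth cells. Floxed controls, 3 libraries, were made from Fpr2f/f mice, whose Fpr2 gene carries loxP sites and whose genotype is labelled WT. Knockouts, also 3 libraries, were made from Fpr2VKO mice, labelled as an Fpr2 knockout of the gut epithelium. The gene's product senses formylated peptides of bacteria and mitochondria. The labels give no age, sex or driver of the recombinase. Whether each library is a different animal is not stated either, so the p-values here speak of spread among libraries that may be only technical. Fpr2 itself was not analysed here, so the genotypes were not checked on the targeted gene. The study's title names intestinal stem cell proliferation, and these genes carry out its last step, division.

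In mitosis, cyclin-dependent kinase 1 with its cyclins starts chromosome condensation and spindle assembly, kinetochores tie each chromosome to spindle microtubules, and the spindle checkpoint holds anaphase until all are attached. The anaphase-promoting complex then degrades cyclin B and securin, the chromatids part, and the central spindle and contractile ring divide the cell. Transcripts of these genes are made mainly in G2 and mitosis, and in the crypt they mark the transit-amplifying zone and the cycling stem cells.

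Libraries held 11108511 to 16859902 estimated counts, of which the 42 genes together took between 0.171% and 0.411%. Floxed controls 1 and 3, with 11108511 and 12075398 counts, were the shallowest. All 8 crypt epithelium markers, Epcam, Cdh1 and Vil1 among them, were tested, with a summed level of 7517 to 9668 CPM (counts scaled so that libraries of unequal depth compare) in the controls and 8404 to 9299 in the knockouts. Markers of fibroblasts and muscle summed to at most 6.77 CPM in any library, and 3 of the 9 passed the filter. Floxed controls 1 and 3 stood apart on T cell markers, of which 11 of 13 were tested: none of those in the table was at 0 in all libraries, and the list summed to 274.8 and 217.2 CPM there, against 70.2 CPM in floxed control 2 and 61.6 to 78.7 CPM in the knockouts. Erythroid markers summed to 15.7 and 17.2 CPM in those controls, 5.11 CPM in floxed control 2 and at most 3.89 CPM in the knockouts. Core clock genes summed to 312.4 CPM in floxed control 2 and 299.6 CPM in knockout 1, against 491.8 to 555.3 CPM in the other 4 libraries.

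Each of the 42 mitotic genes had a higher fitted level in the knockouts, but none passed edgeR's test. Log2 fold changes (knockout over floxed control) ran from 0.05 for Plk1 to 0.76 for Kif20b, with a median of 0.45 beside -0.013 over all genes tested, of which 48.1% were positive. By edgeR's quasi-likelihood test with Benjamini-Hochberg adjustment over all genes, 0 of the 42 were called, and 2 of all 12943 genes were, or 0.0155%, with 1 of them, or 0.00773%, higher in the knockouts. DESeq2 called Kif23 and Bub1, beside 0.294% of all genes called higher, and limma-voom called 0, beside 0.00773%. At an unadjusted p under 0.05 by edgeR, 17 of the 42 were higher in the knockouts and 0 were lower, where 4.09% of all genes were higher at that threshold. The groups did not overlap for 13 members, with the lowest knockout above the highest control, beside 6.99% of all genes. In bulk RNA, more dividing cells, more mitotic transcript per dividing cell and a smaller share of RNA from other cells cannot be told apart.

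The 3 controls did not form a single level. Summed over the 42 genes, floxed control 1 had 2307 CPM, floxed control 2 had 3413 CPM and floxed control 3 had 2038 CPM. The sums of knockouts 1 to 3 were 3324, 3648 and 3495 CPM. Floxed control 2 thus lay between knockouts 1 and 3, while floxed controls 1 and 3 lay well under each knockout. Both of those controls were below all 3 knockouts in 39 of the 42 genes, a pattern found in 20.1% of all genes, and floxed control 2 was above all 3 knockouts in 15 and below all 3 in 14. These shares of the members, 35.7% and 33.3%, stand beside 34.8% and 24.8% of all genes, so a position of floxed control 2 above the knockouts was about as common in the table as a whole. The lowest library was floxed control 3 for 27 genes and floxed control 1 for the other 15. The SD in CPM was larger among controls than among knockouts for 35 of the 42, and for 70.3% of all genes. The libraries low in mitotic transcript were also the shallowest and those high in T cell markers, and the part of depth and of these markers in the result was not tested.

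**Figure D1:**
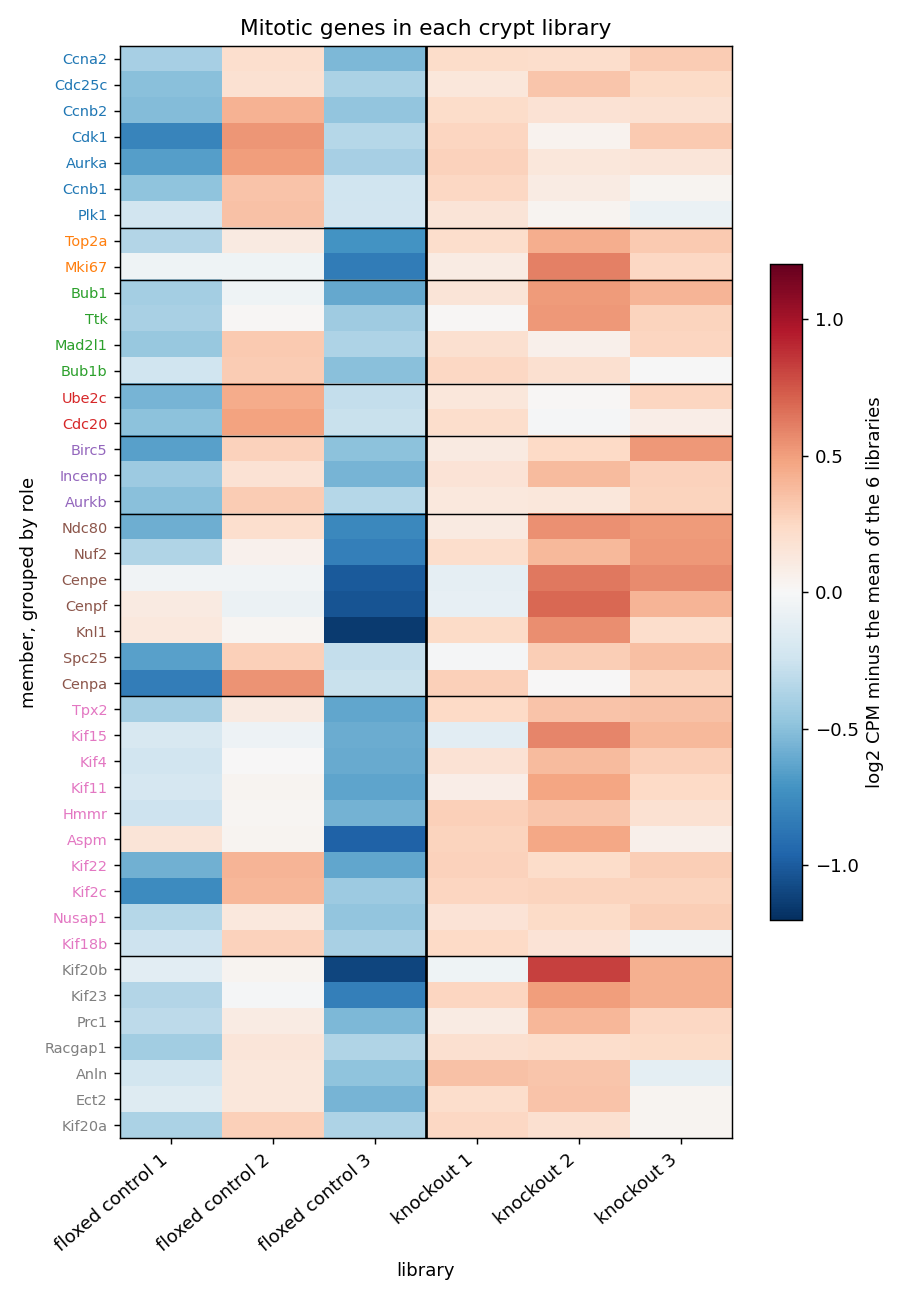
Colour shows the log2 CPM of each mitotic gene in each library minus its mean over the 6 libraries, with genes on the vertical axis grouped and coloured by role and libraries on the horizontal axis. Floxed controls 1 and 3 are blue in most rows, while floxed control 2 is mostly the colour of the knockouts and the highest library for 15 genes.

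Leaving libraries out moved the count of calls between 0 and 21. Without floxed control 2, edgeR called 21 of the 42 higher, beside 1.42% of all genes, with a median log2 fold change of 0.70. In that setting 39 had an unadjusted p under 0.05, beside 10.2%, and 39 did not overlap, beside 20.3%. Without floxed control 2 and knockout 1, the pair with low clock gene levels, it called 15, also beside 1.42%, with a median of 0.74. There 37 had an unadjusted p under 0.05, beside 9.81%, and 41 did not overlap, beside 27.0%. Without floxed controls 1 and 3 it called 0, beside 0.0225%, with a median of 0.13. Of the 42, 26 were then positive, beside 53.0% of all genes, and 1, Kif23, had an unadjusted p under 0.05, beside 4.72%. The 16 that were negative had a median exon length of 2344 bases, and the 26 positive ones 4080.5 bases. That last setting leaves 1 control library, which is assumed to vary like the knockouts. With only floxed control 3 or only knockout 2 left out, 6 members had an unadjusted p under 0.05, beside 1.83% and 1.71% of all genes, and without knockout 2 the groups of 13 did not overlap, beside 8.70%.

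Many mitotic genes are known for a pair of promoter elements. The cell cycle homology region (CHR) is bound by the MuvB core of the DREAM and B-MYB complexes, and CCAAT boxes are bound by the factor NF-Y. The RefSeq promoter table (GRCm38.p6) held 38 promoters of 36 members, each running from 250 bases before to 50 bases after the transcription start. The CHR was searched as TTTGAA and the other strand's TTCAAA, and the CCAAT box as CCAAT and ATTGG; in these promoters no match of one overlapped a match of the other. A CHR match was present in 31 of the 38, or 81.6%, against 13.3% of the 17419 promoters of all genes in the table. A CCAAT match was present in 28, or 73.7%, against 37.6%, and both in 25, or 65.8%, against 5.40%. Of the 39 promoters of the S phase list, 10.3% held a CHR match and 53.8% a CCAAT match. Of the 142 promoters of the other mitotic lists described below, 32.4% held a CHR match, 52.1% a CCAAT match and 21.1% both. The shares of the members were thus above those of the other mitotic lists pooled, but single lists varied. CHR matches ran from 15.8% of promoters for the anaphase-promoting complex to 60.0% for further checkpoint genes and 62.5% for condensin. CCAAT matches ran from 21.1% for further cytokinesis genes to 85.7% for other kinesins, the latter above the share of the members. The promoters printed here belong to the 4 members with the smallest p among those that hold both elements. They run from 150 bases before to 30 bases after the start, 5′ to 3′ on the gene's strand, with both elements in capitals.
Kif23 (chr9:61946770-61946949, minus strand): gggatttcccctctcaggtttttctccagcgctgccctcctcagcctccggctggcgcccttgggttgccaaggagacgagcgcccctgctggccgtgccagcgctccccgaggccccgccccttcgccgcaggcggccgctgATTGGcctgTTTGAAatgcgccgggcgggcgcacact
Kif4 (chrX:100625915-100626094, plus strand): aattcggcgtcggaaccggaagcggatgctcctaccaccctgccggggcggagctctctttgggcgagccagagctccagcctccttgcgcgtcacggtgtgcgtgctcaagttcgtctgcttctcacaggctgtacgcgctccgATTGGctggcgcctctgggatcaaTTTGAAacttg
Hmmr (chr11:40733408-40733587, minus strand): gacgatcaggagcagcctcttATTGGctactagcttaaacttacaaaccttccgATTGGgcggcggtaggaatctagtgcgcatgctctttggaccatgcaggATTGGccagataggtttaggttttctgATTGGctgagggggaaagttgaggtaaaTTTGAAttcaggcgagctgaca
Top2a (chr11:99024160-99024339, minus strand): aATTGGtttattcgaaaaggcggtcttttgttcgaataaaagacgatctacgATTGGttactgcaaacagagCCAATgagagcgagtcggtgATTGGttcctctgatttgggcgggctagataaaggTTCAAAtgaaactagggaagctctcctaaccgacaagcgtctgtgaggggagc

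In the stretches shown, the CHR match lies close to the start and the CCAAT matches lie upstream of it; Top2a holds a further CHR match before its stretch. That order was common among the members. The median first base was 3 after the start for the 41 CHR matches and 68 before it for the 65 CCAAT matches, of which 64 began upstream. Of the CHR matches 19 also began upstream, and 31 lay between 30 bases before and 50 after the start. Within 80 bases before to 50 after the start, 76.3% of member promoters held a CHR match, against 4.33% of all promoters of the table. Log2 fold changes of members with and without a CHR match overlapped. The 29 genes with a match had a median log2 fold change of 0.44 (0.05 to 0.76). The 7 without one, among them Bub1, Nuf2 and Ccnb1, had 0.53 (0.21 to 0.71). Only the exact letters were searched, so these 7 lack a match but not necessarily the element. A match is a run of letters, and binding was not measured here.

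**Figure D2:**
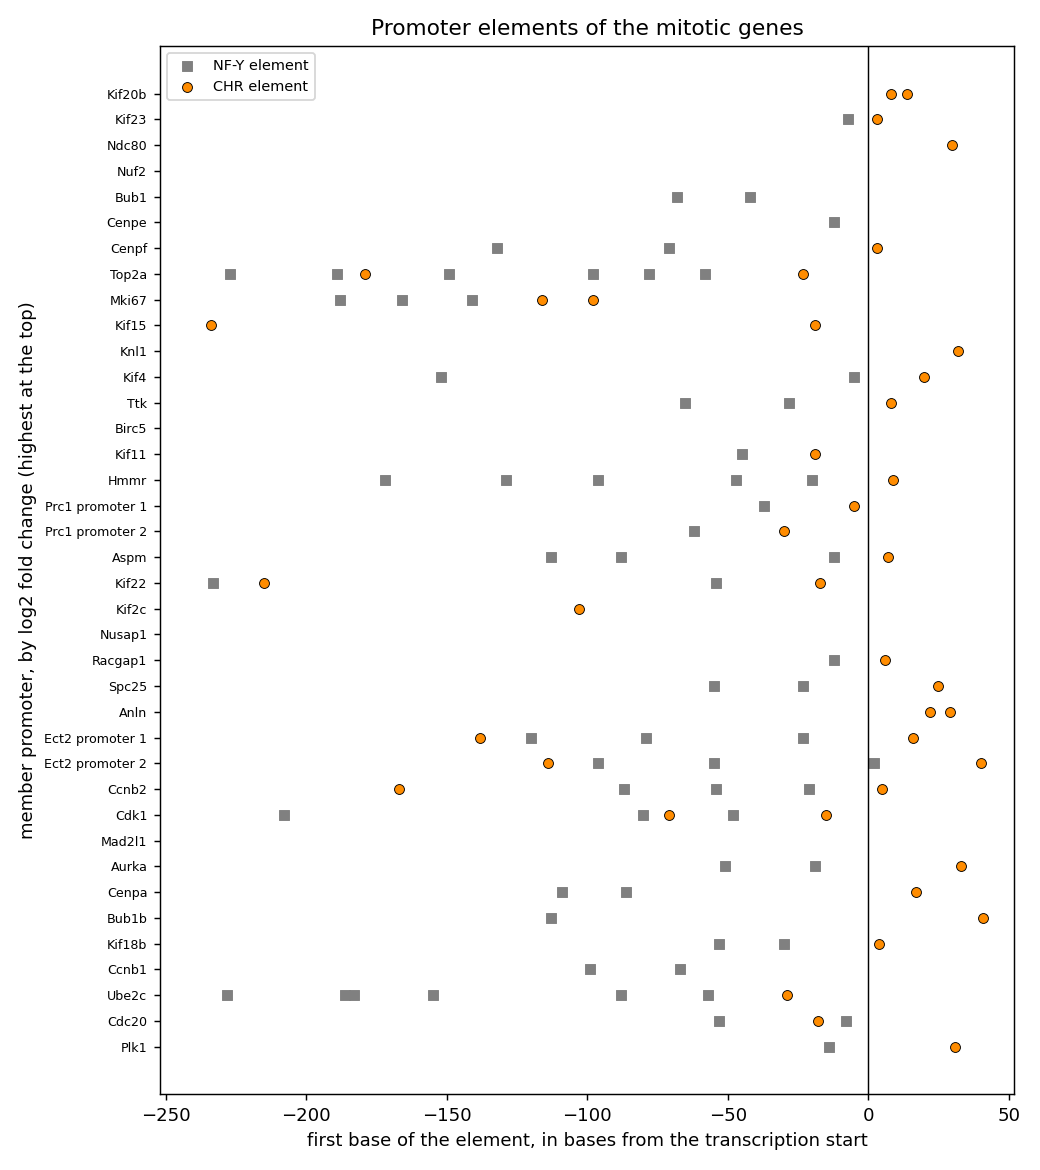
Each row is a member promoter, ordered by log2 fold change with the highest at the top, and the horizontal axis gives the first base of each element in bases from the transcription start. Circles are matches to the cell cycle homology region (CHR), centred on a median of 3 after the start, and squares are CCAAT matches (NF-Y element), of which 64 of 65 begin upstream.

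Among the mitotic entry kinases and cyclins, 1 of 7 genes had groups that did not overlap. Of the 7, 0 had an unadjusted p under 0.05 and the median log2 fold change was 0.30. Here and in the role groups that follow, the shares over all genes were 6.99% without overlap and 4.09% at that p, both higher in the knockouts. Ccna2, cyclin A2, which acts from S phase to early mitosis, was at 128.8, 195.7 and 116.5 CPM in the floxed controls and 197.4, 197.0 and 209.7 CPM in the knockouts, in the order of their numbers here and throughout. Its highest control was just under its lowest knockout (log2 0.45 ± 0.21, SE; adjusted p = 0.367 by edgeR). Cdk1, the kinase that drives mitotic entry, stood at 41.1, 102.7 and 56.0 CPM against 85.4, 73.2 and 88.5 CPM, with floxed control 2 the highest of the 6 (log2 0.30 ± 0.28; edgeR adjusted p = 0.697). Ccnb1, cyclin B1, its mitotic partner, stood at 45.3, 80.1 and 53.4 CPM against 75.0, 67.7 and 64.8 CPM. Here too floxed control 2 was above every knockout (log2 0.21 ± 0.21; edgeR adjusted p = 0.713). Plk1, polo-like kinase 1, which matures centrosomes and acts in cytokinesis, had the smallest difference of the 42, at 118.6, 176.8 and 118.3 CPM against 154.7, 142.4 and 131.5 CPM (log2 0.05 ± 0.19; edgeR adjusted p = 0.943). Its direction turned with 1 library left out, to -0.014 without floxed control 1, -0.0076 without floxed control 3 and -0.0091 without knockout 1. The phosphatase gene Cdc25c, which activates CDK1, stood at 10.2, 16.5 and 11.1 CPM against 16.02, 18.3 and 17.1 CPM, with floxed control 2 above knockout 1 (log2 0.44 ± 0.21; edgeR adjusted p = 0.399). Ccnb2 and Aurka, cyclin B2 and the centrosomal aurora kinase, had log2 0.32 ± 0.24 and 0.28 ± 0.26.

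The proliferation antigen Mki67 and the DNA topoisomerase Top2a, which decatenates sister chromatids, did not overlap between the groups. Mki67 stood at 299.4, 297.6 and 172.5 CPM in the controls and 331.5, 469.1 and 366.4 CPM in the knockouts. Its controls 1 and 2 were alike and close to knockout 1, and floxed control 3 was the low one (log2 0.60 ± 0.24; edgeR adjusted p = 0.307). Top2a stood at 205.1, 280.8 and 159.1 CPM against 302.7, 352.4 and 323.8 CPM (log2 0.60 ± 0.22; edgeR adjusted p = 0.256). Its highest control, floxed control 2, was under its lowest knockout, knockout 1.

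Among the spindle checkpoint genes, 2 of 4 had an unadjusted p under 0.05. Bub1 (gene 12235; chr2:127801122-127831865, minus strand, GRCm38), the kinetochore kinase that recruits the checkpoint proteins, stood at 18.6, 23.9 and 16.1 CPM in the controls and at 27.5, 35.3 and 32.9 CPM in the knockouts. All knockouts were above all controls (log2 0.70 ± 0.19; adjusted p = 0.166 by edgeR and 0.0406 by DESeq2). Without floxed controls 1 and 3, which leaves 1 control library, its log2 fold change was 0.48 ± 0.23. Ttk, the kinase MPS1 that starts checkpoint signalling, stood at 13.8, 18.3 and 13.5 CPM against 18.3, 26.0 and 21.8 CPM, where floxed control 2 and knockout 1 were level (log2 0.53 ± 0.20; edgeR adjusted p = 0.275). Bub1b, the checkpoint protein BUBR1, stood at 50.4, 73.6 and 41.9 CPM against 70.9, 67.8 and 59.4 CPM, with floxed control 2 on top (log2 0.25 ± 0.21; edgeR adjusted p = 0.647). Mad2l1, the checkpoint inhibitor MAD2, had log2 0.30 ± 0.21.

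The partners of the anaphase-promoting complex, Cdc20 and Ube2c, had floxed control 2 above every knockout, as Cdk1 did. Cdc20, the activator that the checkpoint blocks, stood at 76.2, 150.4 and 89.4 CPM in the controls and 124.2, 106.0 and 113.4 CPM in the knockouts. Its highest value was floxed control 2, and its 3 knockouts lay inside the range of the controls (log2 0.12 ± 0.24; edgeR adjusted p = 0.879). Without floxed control 1 its log2 fold change was -0.034, and without floxed controls 1 and 3 it was -0.33, the lowest of the 42. Ube2c, the ubiquitin-conjugating enzyme of the complex, stood at 118.4, 237.4 and 142.9 CPM against 191.3, 175.9 and 208.6 CPM (log2 0.21 ± 0.24; edgeR adjusted p = 0.768). Per kilobase of merged exon length, Ube2c, Plk1 and Cdc20 were the most abundant of the 42, at 68.9, 63.8 and 61.3 CPM per kb over all libraries, and Aspm and Cenpf the least, at 2.20 and 3.22 CPM per kb. Ube2c, Plk1 and Cdc20 had log2 fold changes of 0.21, 0.05 and 0.12, the 3 smallest of the 42.

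In the chromosomal passenger complex, which corrects faulty attachments and later directs cytokinesis, 1 of 3 genes had an unadjusted p under 0.05. Incenp, the scaffold, stood at 65.8, 100.4 and 60.4 CPM against 99.8, 116.3 and 108.3 CPM, with floxed control 2 a little above knockout 1 (log2 0.52 ± 0.20; edgeR adjusted p = 0.297). Birc5, survivin, which brings the complex to the centromere, stood at 53.6, 102.6 and 60.1 CPM against 90.9, 99.5 and 121.5 CPM (log2 0.53 ± 0.24; edgeR adjusted p = 0.368). Aurkb, aurora kinase B, stood at 41.4, 72.3 and 46.4 CPM against 64.3, 64.7 and 70.9 CPM, with floxed control 2 the highest (log2 0.32 ± 0.21; edgeR adjusted p = 0.544). Differences between these members were not tested.

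Kinetochore and centromere genes had a median of 0.62, the highest of the 8 role groups, and 3 of 7 had an unadjusted p under 0.05. Nuf2, of the NDC80 complex that grips microtubules, stood at 19.6, 26.2 and 14.3 CPM in the controls and 29.3, 33.2 and 36.2 CPM in the knockouts, without overlap (log2 0.71 ± 0.22; edgeR adjusted p = 0.200). Its partner Ndc80 stood at 10.9, 18.9 and 9.55 CPM against 17.7, 24.0 and 23.4 CPM, where floxed control 2 was above knockout 1 (log2 0.72 ± 0.26; edgeR adjusted p = 0.256). Spc25, of the same complex, had log2 0.38 ± 0.24. The motor Cenpe, which carries chromosomes to the spindle equator, stood at 37.6, 37.8 and 19.2 CPM against 35.9, 60.5 and 57.7 CPM. Knockout 1 was thus under floxed controls 1 and 2, while floxed control 3 was low and knockouts 2 and 3 were high (log2 0.70 ± 0.27; edgeR adjusted p = 0.297). Cenpf and Knl1, a kinetochore corona protein and the scaffold that holds BUB1, had log2 0.62 ± 0.29 and 0.57 ± 0.28. Cenpa, the histone H3 variant that marks centromeres, stood at 31.4, 81.2 and 46.2 CPM against 68.1, 55.8 and 66.9 CPM, with floxed control 2 the highest (log2 0.26 ± 0.29; edgeR adjusted p = 0.745).

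Spindle assembly factors and motors held 6 of 10 genes with an unadjusted p under 0.05 and 5 without overlap, beside 4.09% and 6.99% of all genes, with a median of 0.48. Tpx2, which activates aurora A and nucleates spindle microtubules, stood at 54.0, 77.2 and 46.4 CPM in the controls and 84.3, 90.5 and 91.1 CPM in the knockouts (log2 0.58 ± 0.19; edgeR adjusted p = 0.229). Kif4, a chromosome-bound kinesin that also sets the length of the central spindle, stood at 33.8, 39.8 and 26.0 CPM against 44.7, 51.5 and 48.4 CPM (log2 0.53 ± 0.18; edgeR adjusted p = 0.230). Both kept every knockout above every control. Hmmr, a spindle-bound hyaluronan receptor, Nusap1, a microtubule bundler, and Kif11, the motor that pushes the poles apart, did so as well, at log2 0.51 ± 0.18, 0.43 ± 0.18 and 0.51 ± 0.20. Kif15, a motor that can maintain spindles alongside Kif11, had log2 0.58 ± 0.22, with knockout 1 at 28.2 CPM under floxed control 2 at 29.4 CPM. Kif22, which pushes chromosome arms outwards, and the microtubule depolymerase Kif2c had log2 0.44 ± 0.25 and 0.44 ± 0.26. Kif2c was almost the same in the 3 knockouts, at 38.7, 38.8 and 39.0 CPM, while its controls ran from 19.1 to 42.6 CPM. Aspm, of the spindle poles, had log2 0.45 ± 0.27. Kif18b, a motor that shortens astral microtubules, stood at 24.8, 35.7 and 22.5 CPM against 34.8, 33.0 and 28.7 CPM, with floxed control 2 the highest (log2 0.21 ± 0.20; edgeR adjusted p = 0.698).

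Cytokinesis genes held the 2 largest differences of the 42. Kif23 (gene 71819; chr9:61915905-61946774, minus strand, GRCm38), the motor of centralspindlin that bundles the central spindle, stood at 56.6, 71.5 and 40.9 CPM in the controls and 86.2, 102.5 and 97.5 CPM in the knockouts. Every knockout was above every control, means were 56.3 ± 15.3 and 95.4 ± 8.32 CPM (SD, n = 3 each), and the log2 fold change was 0.76 ± 0.20 (adjusted p = 0.160 by edgeR and 0.0219 by DESeq2). It had the smallest p of the 42, and its log2 fold change stayed between 0.61 and 0.98 with any single library left out. Its partner Racgap1, the other subunit of centralspindlin, did not overlap either, at log2 0.40 ± 0.18. Kif20b, a kinesin of late cytokinesis, stood at 25.7, 28.7 and 13.0 CPM against 27.1, 49.8 and 37.8 CPM, where knockout 1 was under floxed control 2 (log2 0.76 ± 0.30; edgeR adjusted p = 0.289). Kif20a, which moves the passenger complex to the central spindle, stood at 44.6, 70.7 and 44.7 CPM against 68.7, 66.1 and 59.1 CPM, with floxed control 2 on top (log2 0.27 ± 0.20; edgeR adjusted p = 0.593). Prc1, the microtubule bundler, Anln, the contractile ring scaffold, and Ect2, which starts furrowing at the cleavage plane, had log2 0.48 ± 0.19, 0.37 ± 0.21 and 0.37 ± 0.19.

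**Figure D3:**
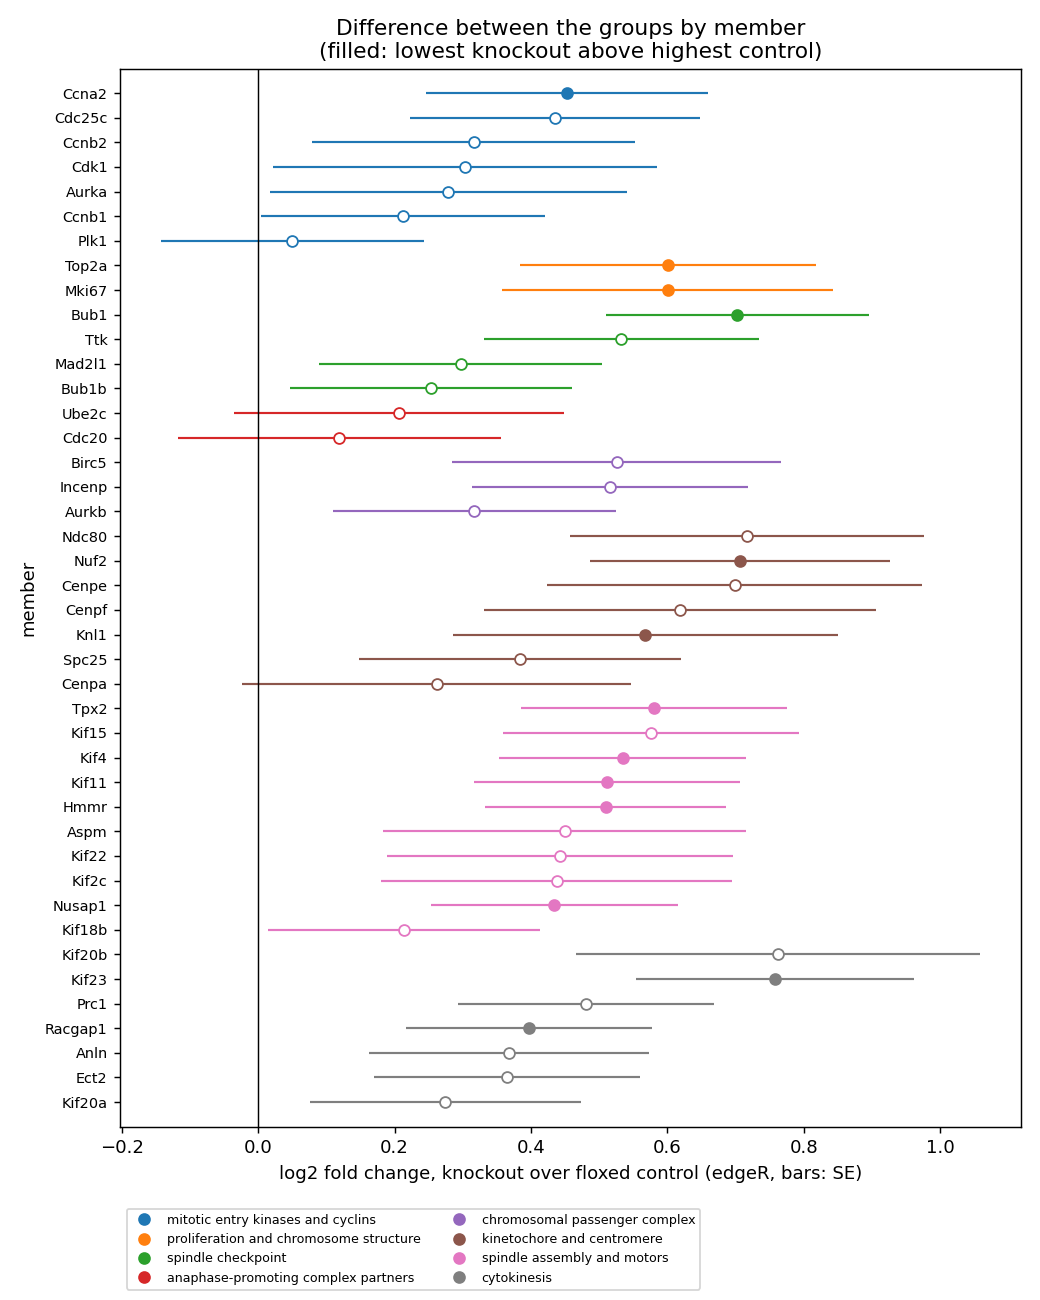
Points are log2 fold changes of each member, knockout over floxed control, with bars of 1 SE from edgeR, coloured by role; filled points are the 13 genes whose lowest knockout lies above the highest control. All 42 points lie right of 0, from 0.05 for Plk1 to 0.76 for Kif20b.

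Which control was lowest went with transcript length. Merged exon lengths in GENCODE M21 ran from 1531 bases for Ccnb2 to 11130 bases for Cenpf, with a median of 3411.5. In floxed control 1 the level relative to the 6-library mean went up by 0.23 on the log2 scale per doubling of length across the 42 genes, and over all 12495 tested genes with a length it went up by 0.20. In floxed control 2 it changed by -0.15 per doubling among the members and by -0.11 over all genes. In floxed control 3 it changed by -0.22 and -0.0485, and in knockout 2 by 0.16 and 0.053. Knockouts 1 and 3 had slopes of -0.037 and 0.023 among the members, and 0.0078 and -0.10 over all genes. The 21 shorter members averaged -0.50, 0.28 and -0.45 in floxed controls 1, 2 and 3, and the 21 longer ones averaged -0.23, 0.10 and -0.67. In the knockouts the shorter members averaged 0.18, 0.24 and 0.25 and the longer ones 0.15, 0.40 and 0.25.

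The 15 genes with floxed control 2 above all knockouts, a share near that of all genes (35.7% against 34.8%), had a median length of 2489 bases, and the 14 with it below all knockouts had 4204.5 bases. The first set is made up of Cdk1, Ccnb1, Ccnb2, Plk1, Aurka, Bub1b, Mad2l1, Cdc20, Ube2c, Aurkb, Cenpa, Kif18b, Kif2c, Kif22 and Kif20a, and the second of the 13 genes without overlap and Aspm. Across the 42 genes, the log2 fold change and log2 length had a Pearson correlation of 0.43 and a Spearman correlation of 0.455. Over all tested genes these were -0.048 and -0.093. Genes are not independent replicates and share the same libraries, so these are descriptions. With a length trend taken off each library, the median of the members was 0.46, 24 had an unadjusted p under 0.05 beside 7.33% of all genes, and 0 were called, beside 0.00%.

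**Figure D4:**
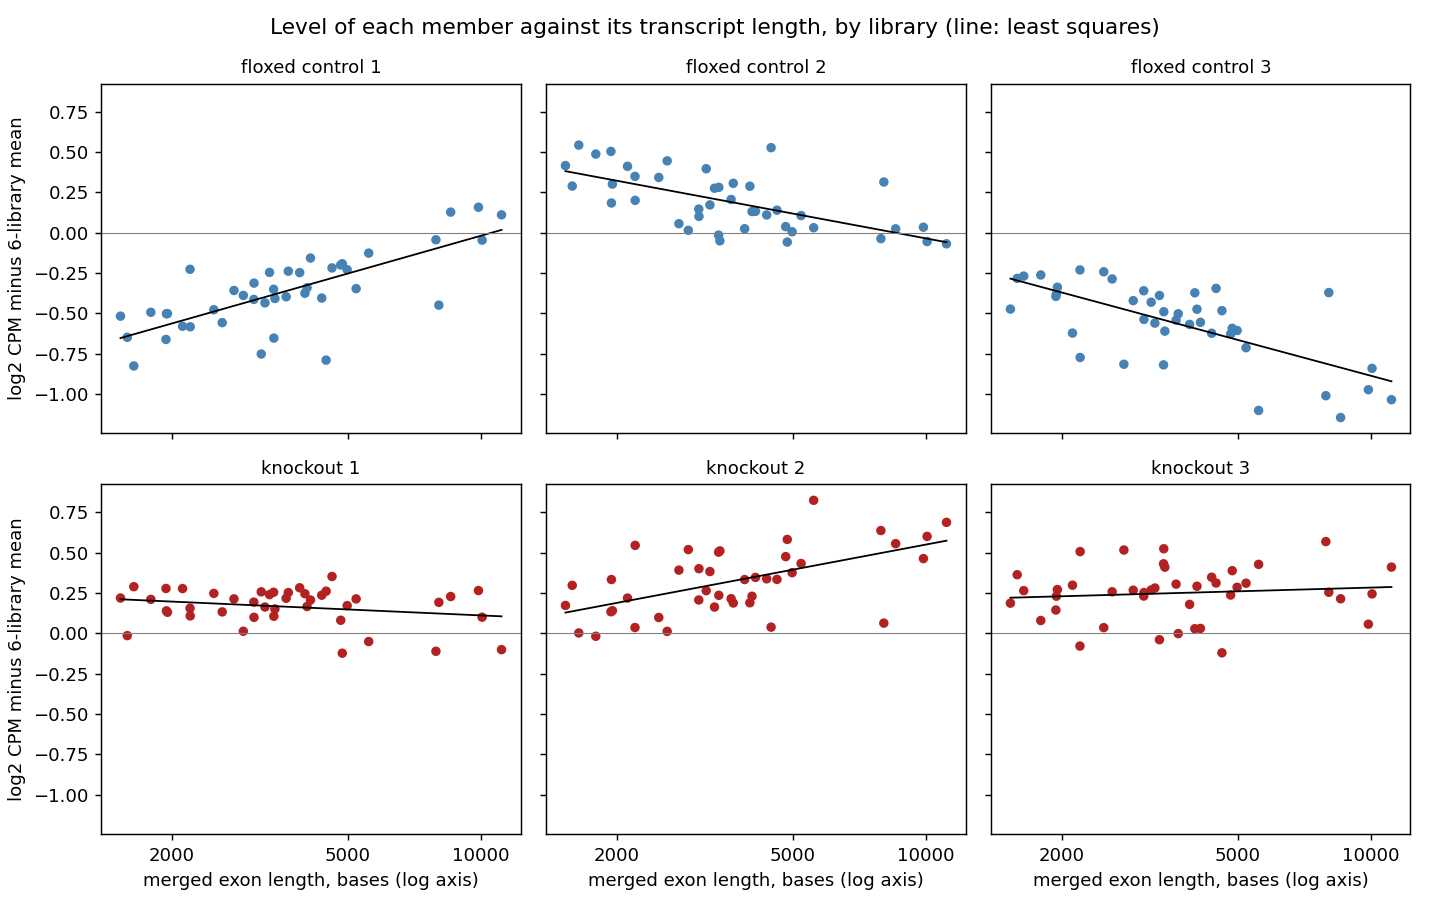
Each panel is a library and each point a mitotic gene, with merged exon length in bases on a log axis and log2 CPM minus the 6-library mean on the vertical axis; lines are least-squares fits. The line slopes up in floxed control 1 (0.23 per doubling), down in floxed control 3 (-0.22) and is nearly flat in knockouts 1 and 3.

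Other genes of the mitotic programme, in 10 lists that share no gene with the 42, were tested in all 145 cases. Of these 133 were positive, beside 48.1% of all genes, and 30 had an unadjusted p under 0.05 and were higher, beside 4.09%. At that threshold 0 were lower, beside 9.63%, and 0 were called, with a median of 0.29. The 9 further checkpoint genes had the highest median, 0.42, with 5 at an unadjusted p under 0.05. Zwilch, of the complex that loads dynein at kinetochores, stood at 14.8, 19.6 and 15.2 CPM against 23.6, 31.9 and 28.8 CPM (log2 0.76 ± 0.19; edgeR adjusted p = 0.140). Kntc1, of the same complex, had log2 0.61 ± 0.20. The 27 further kinetochore and centromere genes had a median of 0.42 with 8 at that threshold, with the smallest p for Dsn1, at log2 0.64 ± 0.21.

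Among 13 further mitotic entry genes the median was 0.32. Bora, the cofactor with which aurora A activates PLK1, stood at 27.2, 32.4 and 22.3 CPM against 40.2, 46.2 and 49.8 CPM, the smallest p of these lists (log2 0.73 ± 0.18; edgeR adjusted p = 0.137). Pkmyt1, an inhibitory kinase of CDK1, had log2 0.60 ± 0.22. Of the 13, 11 were positive and 2 negative. Only Bora and Pkmyt1 had every knockout above every control, beside 6.99% of all genes. The 25 further spindle and centrosome genes were all positive with a median of 0.38, led by Spag5 and Haus6 (log2 0.65 ± 0.21 and 0.62 ± 0.21).

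The 8 condensin genes, all positive, had a median of 0.38, led by Smc4 (log2 0.66 ± 0.22) and Ncapg (0.54 ± 0.22). The 13 genes of separase, securin and cohesin were all positive with a median of 0.24, led by Smc1a and Sgo1 (log2 0.51 ± 0.17 and 0.51 ± 0.18). Of 16 further cytokinesis genes 14 were positive, led by Shcbp1 and Cdca2 (log2 0.55 ± 0.21 and 0.43 ± 0.18). Medians were lowest for the 17 genes of the anaphase-promoting complex and its regulators, 0.12, and the 6 other kinesins, 0.10. In the first of these Fbxo5, an inhibitor of the complex, had log2 0.64 ± 0.25 and Anapc15 0.33 ± 0.21. Among the kinesins Kif14 had log2 0.46 ± 0.23 and Kif1b, a transport motor, -0.30 ± 0.17.

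Among the 11 MuvB, B-MYB and FOXM1 regulators of these genes 8 were positive, 0 had an unadjusted p under 0.05, and the median was 0.23. Foxm1, the factor that activates G2 and mitosis genes, stood at 54.8, 86.9 and 55.0 CPM against 92.0, 81.3 and 75.1 CPM (log2 0.33 ± 0.20; edgeR adjusted p = 0.502). Tfdp1, the dimer partner of E2F factors, had log2 0.28 ± 0.18. The S phase list had 43 of 43 positive, 7 higher at an unadjusted p under 0.05, again beside 4.09%, and a median of 0.34, and 0 were called. Pola1 of DNA polymerase alpha and Rrm2 of ribonucleotide reductase led it, at log2 0.63 ± 0.20 and 0.62 ± 0.22. Its level by library was -0.39, 0.245 and -0.408 in the controls and 0.096, 0.27 and 0.18 in the knockouts, as centred log2. The 42 mitotic genes stood at -0.365, 0.191 and -0.56 and at 0.165, 0.32 and 0.249 on that scale, and the difference between the lists was not tested. Of 7 cyclin-dependent kinase inhibitors tested, Cdkn1c, p57, was lower in every knockout than in any control, at 4.89, 4.98 and 9.45 CPM against 2.54, 2.95 and 3.92 CPM (log2 -1.03 ± 0.33; edgeR adjusted p = 0.211). Cdkn1a, p21, had log2 -0.27 ± 0.21. Of the 7 inhibitors, however, 4 were positive and 3 negative, with a median of 0.14. Over all genes, 10.3% had groups that did not overlap and were lower in the knockouts, as Cdkn1c was.

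**Figure D5:**
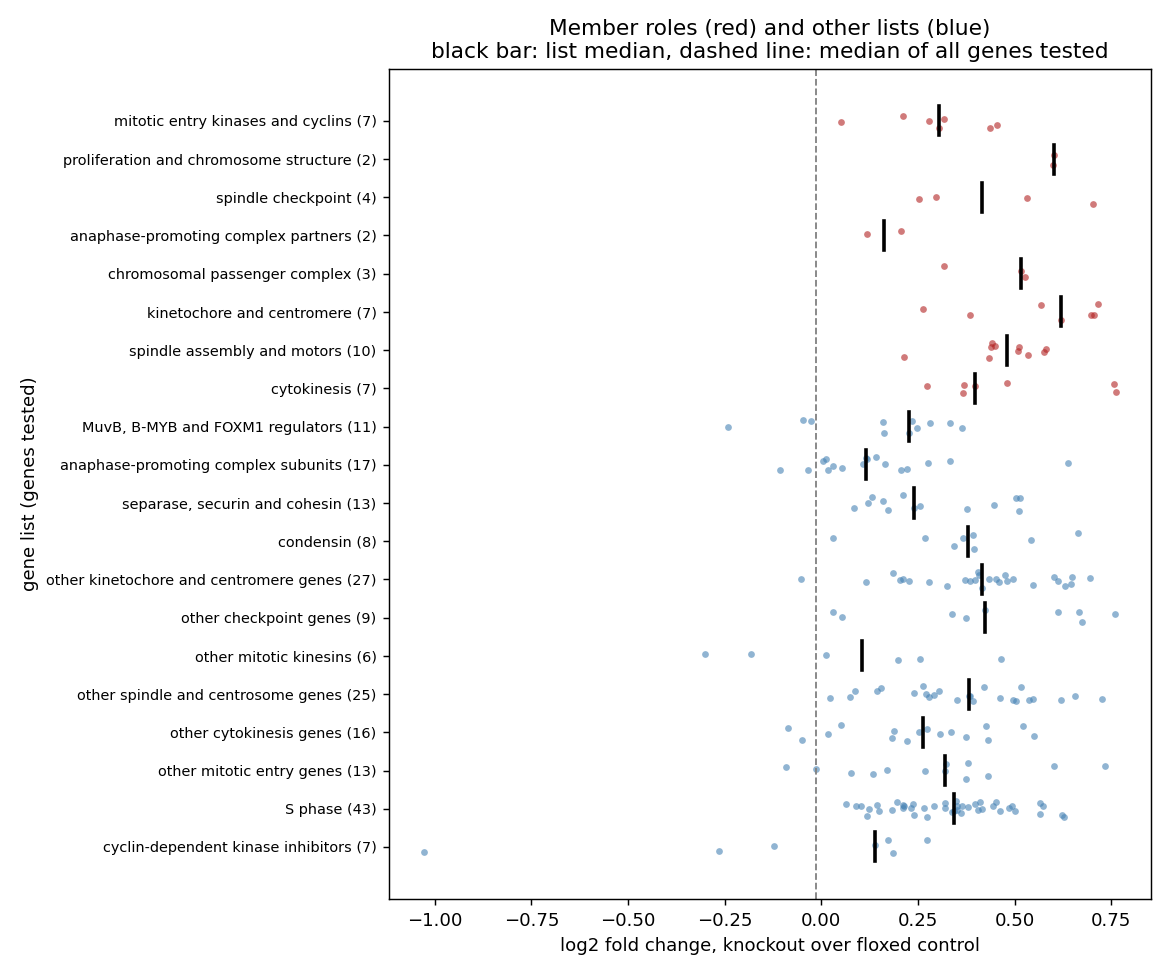
Each point is the log2 fold change of a gene, knockout over floxed control, in the role groups of the 42 mitotic genes (red) and in other lists (blue), with a bar at each list median and a dashed line at -0.013, the median of all genes tested. Every red point is right of 0, the 43 S phase genes are too, and medians are lowest for the other kinesins and the anaphase-promoting complex.

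Markers of other crypt cells were mostly negative. Those of Paneth cells, which do not divide, summed to between 66530 and 131300 CPM in the controls and between 21980 and 34480 CPM in the knockouts, with 10 of 10 at an unadjusted p under 0.05 and lower, beside 9.63% of all genes, though 0 passed over all genes by edgeR. Floxed control 3, the lowest library for 27 mitotic genes, had the highest Paneth sum. Floxed control 2 had the lowest Paneth sum of the controls and the highest mitotic sum. Floxed control 1 broke that order: its Paneth sum of 70860 CPM was near the 66530 CPM of floxed control 2. Its mitotic sum was 2307 CPM, against 3413 CPM in floxed control 2. Crypt base stem cell markers were negative in 8 of 8 with a median of -0.31, and 3 had an unadjusted p under 0.05, beside the same 9.63%. Their sum was 2272 to 2975 CPM in the controls and 1591 to 2226 CPM in the knockouts. Whether these shifts have a part in the levels of the mitotic genes was not tested. Scaling is relevant here because CPM are shares of a total. Scaled to total counts with no TMM factor, the median of all genes was 0.20 and that of the mitotic genes 0.67, against -0.013 and 0.45 under TMM. By total counts 32 members had an unadjusted p under 0.05, beside 14.4% of all genes, and 26 did not overlap, beside 20.4%.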

How the data were processed

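Per the labels' protocols, mRNA libraries of 6 crypt samples were read single-end at 50 bases. The build was mm10, per the submitters' processing notes. Not given in the sources used here: aligner, counter, gene annotation and strand setting. For each gene the authors deposited estimated counts, which need not be whole and were not normalised; 22 of the 42 members had a value that was not whole, and values were rounded for the count tests. The design had assumed counts.

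Knockout was compared with floxed control in edgeR 4.0.16 (R 4.3.3): filterByExpr, TMM, glmQLFit with robust estimation, glmQLFTest, and adjusted p under 0.05 over 12943 genes. CPM are TMM-scaled, and SE is the log2 fold change over the root of F. Centred log2 levels used a prior count of 2. DESeq2 1.42.0 and limma 3.58.1 were alternatives. The fit was also run on simulated counts, drawn independently for each gene and library. Those counts hold no shifts shared by many genes of a library, so that run cannot speak for the fit under such shifts. Lengths are merged exons of protein-coding transcripts in GENCODE M21, matched by symbol for 96.5% of tested genes. Other values and plots were made in Python 3.11.15 (matplotlib 3.10.9, pandas 2.3.3, scipy 1.17.1, numpy 2.4.6).

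The members and lists were chosen with earlier results of these data known. Genes described in full were Mki67, Cdk1, Ccnb1, Top2a, Plk1, Aurkb and Cdc20, and in each role group the 2 with the smallest p and the 1 with the largest; other members have their log2 fold change. In other lists the 2 with the smallest p were named; 1 such gene is not reported here. Cenpe, Kif15 and Kif2c were given library values after those were seen.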

Additional observations from a re-analysis of the deposited data

How the results depend on the processing

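Of 17 alternatives, 16 were listed as planned, and the length trend was chosen after seeing the data. The settings without floxed controls 1 and 3, and without floxed control 2 and knockout 1, drop libraries that stood apart in these data. Those settings cannot be read as chosen independently of the data. The median of the members stayed positive in all 17. It was 0.13 without floxed controls 1 and 3 and 0.74 without floxed control 2 and knockout 1, and 0.36 to 0.70 with single libraries left out. Members with a positive value numbered 26 without floxed controls 1 and 3, beside 53.0% of all genes, and 40 to 42 with single libraries left out. In the latter settings 46.7% to 52.3% of all genes were positive. Members called, all higher in the knockouts, numbered 2 by DESeq2, beside 0.294% of all genes called higher. They numbered 15 without floxed control 2 and knockout 1, beside 1.42%, and 0 to 21 with single libraries left out, beside 0.00% to 1.42%. In each other setting with more than 1 control library they numbered 0, beside at most 0.0232%. Members higher at an unadjusted p under 0.05 numbered 32 by total counts, beside 14.4% of all genes. Without floxed control 2 and knockout 1 they numbered 37, beside 9.81%, and with single libraries left out 6 to 39. In the latter settings the share of all genes ran from 1.54% without knockout 3, with 12 members, to 10.2% without floxed control 2, with 39. Members without overlap numbered 26 by total counts, beside 20.4% of all genes, and 41 without floxed control 2 and knockout 1, beside 27.0%. With single libraries left out they numbered 13 to 39, beside 8.70% to 20.3%. Groups with fewer libraries overlap less readily, so these counts are read beside the shares. Of all genes, 342 were called by DESeq2, 0 with DESeq2 size factors, 13 by total counts, 0 when scaled without the 50 most abundant genes, 67 with no filter beyond 1 count, 39 with a replicate block, 12 without floxed controls 1 and 3, 920 without floxed control 2 and knockout 1, 0 with the length trend taken off, and 0 to 955 with single libraries left out, against 2. The causes of these shifts were not tested.

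Deviations from the group means correlated at -0.18, -0.27 and 0.068 for same-numbered libraries, and floxed control 1 correlated best with knockout 2. Deviations within a group of 3 are tied to each other, so these values cannot decide whether replicate numbers pair the libraries. With a replicate block 0 members were called, beside 0.0232% of all genes, 23 were higher at an unadjusted p under 0.05, beside 2.96%, and the median was 0.51. Depth was lowest in floxed controls 1 and 3. The lowest level of any member in any library was 9.55 CPM, for Ndc80 in floxed control 3.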
